A study of Homo sapiens and Homo sapiens
Mus musculus and Mus musculus with 200 samples.

Results

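TWIST1-bound promoters were examined in human cranial neural crest cells (hCNCC), the migratory embryonic cells that build much of the facial skeleton and its connective tissue. The measurements were read counts of H3K27ac chromatin immunoprecipitation (ChIP-seq) over open-chromatin intervals (ATAC-seq peaks), which form the rows of 6 count tables. A row was taken as a TWIST1-bound promoter when its midpoint was at most 1 kb from the start of a transcript of a protein-coding gene (GENCODE 44, hg38) and when it touched a TWIST1 peak in each of the 2 replicates of unedited (WT) cells at 0 h. Of 213151 rows, 4999 met both conditions, which is 20.2% of the 24807 promoter rows and 12% of all rows with a TWIST1 peak in both replicates. The members were thus chosen by the TWIST1 peaks of WT cells at 0 h, and the strength of those peaks is given only as a description. The comparison groups were 15672 unbound promoters, which touched no TWIST1 peak in either replicate, 4136 promoters with a peak in 1 replicate, and 36561 TWIST1-bound rows farther than 1 kb from any such start, called distal here.

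All hCNCC were derived from the H9 human embryonic stem cell line, and each of the 6 tables held 6 H3K27ac libraries of 1 line, with 2 replicates at 0 h, 3 h and 24 h of dTAGV-1 (500 nM). dTAGV-1 is a small molecule that brings a tagged protein to the cell's ubiquitin machinery for degradation. The TWIST1FV, ALX1FV, PRRX1FV and MSX1FNV lines each carry such a tag on the named factor, the ALX1FV ALX4- line carries the ALX1 tag together with a knockout of ALX4, and WT cells carry no tag and received the same compound. Replicate numbers stood for different edited clones in ALX1FV, ALX1FV ALX4- and PRRX1FV, whereas both TWIST1FV replicates came from 1 clone, so the response of that line is the response of 1 clone. Nothing in the labels says that the replicates were separate cultures or differentiations, so the p-values measure only the spread between these libraries. TWIST1 peak lists came from WT and TWIST1FV cells at 0 h and 3 h and from ALX1FV ALX4- cells at 0 h. These had 2 replicates each. Lists of the tagged homeodomain factors came from their lines at 0 h, also with 2 replicates. Lists of AP2a in hCNCC (1 library per antibody) and of TWIST1 in a human lymphoblast line (1 library) were also used. Further TWIST1 lists came from a human embryonic kidney line transfected with TWIST1, alone or with ALX4, and labelled 24 h. A pCAG plasmid gave 1 library of each kind, and another plasmid with V5-tagged TWIST1, precipitated by its tag, gave 3 of each.

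TWIST1 is a basic helix-loop-helix (bHLH) factor that binds DNA as a dimer at E-boxes, short sites of the form CANNTG, often with an E protein such as TCF3 or TCF12 as partner. It is known for its part in the formation of mesenchyme from neural crest and in the epithelial-to-mesenchymal transition, and loss of 1 copy causes premature fusion of skull sutures. H3K27ac is the acetylation of lysine 27 on histone H3 by the coactivators CBP and p300, and it marks active promoters and enhancers. Many promoters lie in CpG islands and carry the mark in nearly all cell types, while enhancers are far more specific to a cell type.

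The bound promoters lay nearest to the starts of 4123 genes and shared 4529 distinct TWIST1 peaks, so neighbouring members can rest on the same peak. Their median width was 843 bp, against 501 bp for unbound promoters, and a wider row has more chance of touching a peak. The annotation's canonical start of a gene lay within 1 kb of 77.2% of the bound and 72.7% of the unbound promoters, and the remainder were at alternative starts only. The authors' fold enrichment of TWIST1 over background had a median of 7.46 in replicate 1 and 6.75 in replicate 2, against 14.0 and 11.9 at distal bound rows. TWIST1 peaks at promoters were thus weaker than those at distal rows in both lists. FSTL3, an activin-binding protein related to follistatin, had the highest value in replicate 1 (158), over an alternative start. Its value in replicate 2 was 161, where the highest of the members was 213. The weakest members, at TRIOBP and PPP2CA, had a −log10 q of 1.31 in replicate 2 and of 8.67 and 2.96 in replicate 1. TWIST1 summits lay upstream of the nearest start in 59.3% of members and within 250 bp of it in 53.8%, and 24.4% lay in an exon. At the edge of the distance limit, members at FCGR2A and PLEKHG1 (999 bp from the start) had log2 changes of H3K27ac in TWIST1FV at 3 h of -0.60 and 0.21. The rows just outside it, at MRC2 (1001 bp), CDC42EP1 (1001 bp) and UBE2T (1002 bp), had changes of -0.33, 1.15 and -0.23.

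The windows of 100 bp to either side of the TWIST1 summits of the bound promoters were searched on both strands for the letters of E-boxes. At least 1 of the form CAGATG, which reads CATCTG on the other strand, the form CATATG and the form CAGCTG was found in 58.5% of the windows, against 20.4% of 9998 flanking windows 1 kb to either side, 21.9% of unbound promoters (around their midpoints) and 69.0% of distal bound windows. The share of each form was not the same at promoter and distal windows. CAGCTG stood in 32.7% of promoter and 27.7% of distal windows (8.88% of the promoters' flanks, 14.2% of unbound promoters), CAGATG in 30.6% and 45.8%, and CATATG in 3.04% and 10.6%, with 2.59% in the promoters' flanks. CACGTG, the E-box form of MYC and related factors, stood in 7.60% of promoter windows, 3.08% of distal windows and 2.91% of the promoters' flanks. The following sites, all from hg38 on the + strand with the E-box in capitals, lay under the summits of members with large changes of H3K27ac, of members of gene groups described further on and of FSTL3, which has the strongest peak, and they show the range of E-box forms.
COL17A1 (chr10:104084744-104084772, intron of COL17A1): gtggggatagaCATCTGtcttaggttagt
MPP1 (chrX:154820040-154820068, intron of MPP1): cctgtaaagttCAGCTGcagacatagaga
PRIM2 (chr6:57315430-57315458, intron of PRIM2): aagaactacacCATATGggagtcatgaag
SMAD3 (chr15:67098467-67098495, intron of SMAD3): gaaatgaatgtCAGATGttaggaagaaaa
LTBP1 (chr2:33134259-33134287, intron of LTBP1): gagatttgagaCAGATGttttcagacatg
AXIN2 (chr17:65559242-65559270, within AXIN2, outside exons): cccttccccggCATCTGgttcccattctc
FSTL3 (chr19:679253-679281, within FSTL3, outside exons): ccgagcatttcCAGATGtgcctgtgagcc
CADPS2 (chr7:122438772-122438800, intron of CADPS2): caccattaaagCAGCTGtttcagataaag
SP7 (chr12:53346048-53346076, outside protein-coding genes): ctgatcaaggcCAGATGggagaagggatg
No such letters were found in the windows of FLI1, COL11A1, DKK1 and IGSF9B. The H3K27ac of COL17A1, MPP1, PRIM2, SMAD3, LTBP1, AXIN2 and FSTL3 fell on TWIST1 depletion, while that of CADPS2 and SP7 rose, and the E-box forms CAGATG and CAGCTG each occurred in both sets.

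Joint sites of an E-box and a homeodomain site (TAATTA or TAATTG) 4 bases apart were also searched, because ALX1, ALX4, PRRX1 and MSX1 are homeodomain factors. They stood in 32 bound promoters (0.640%), 0 of the 9998 flanking windows, 1 of 15672 unbound promoters and 2.74% of distal bound windows. The homeodomain site alone stood in 9.50% of promoter and 26.2% of distal windows. A pair of E-boxes 5 bases apart stood in 34 bound promoters (0.680%), 0.050% of flanks and 1.05% of distal windows. Examples of joint sites and of E-box pairs at promoters with changed H3K27ac are shown with both elements in capitals.
CTSS (chr1:150765434-150765462, within CTSS, outside exons): tcttttTAATTGaaaaCATCTGgaatttt
RAB27A (chr15:55270412-55270440, exon of RAB27A): tccagcTAATTAgtctCAGCTGtttgtca
CHRNA1 (chr2:174788015-174788043, outside protein-coding genes): tgcgaaCATATGgggccCAGATGtaccac
CD81 (chr11:2378841-2378869, within CD81, outside exons): cagagaCATCTGtttccCATCTGgacggc
SMARCB1 (chr22:23791556-23791584, within SMARCB1, outside exons): gatgcaCATATGcaggcCAGATGtgcact
The homeodomain site comes first on the + strand in both joint sites shown.

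The H3K27ac libraries held between 5137169 and 9173063 counts over the rows. At 0 h, over the libraries of all 6 lines, the promoters of neural crest marker genes had median percentiles among all promoters from 67.5 for ETS1 to 98.9 for TFAP2A. Epithelial markers ranked from 3.29 (CDH1) to 47.0 (EPCAM), neuronal ones from 1.36 (STMN2) to 55.6 (TUBB3), muscle ones at 8.58 (MYOD1) and 33.8 (MYOG), and blood ones at 26.5 (RUNX1) and 42.0 (CD34). Of the pluripotency markers, ZFP42 ranked at 12.1, DPPA4 at 60.2 and LIN28A at 99.8. In TWIST1FV, 1 of 17 tested promoter rows of neural crest markers was lower at both times (SNAI2). At 24 h LIN28A was higher among 4 tested rows of pluripotent-cell markers, EPCAM among 2 of epithelium and TUBB3 among 4 of neurons. The 2 tested rows each of muscle and blood had 0 calls. Among all tested rows, 4.28% were lower at 3 h, and 9.49% were lower and 4.28% higher at 24 h, so these few calls show no trend of a cell type. The part of other cell types in the results that follow was not tested. In ChIP of whole cultures, fewer cells with the mark and less of the mark per cell cannot be told apart.

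In TWIST1FV cells, H3K27ac fell at 150 bound promoters within 3 h of dTAGV-1 and at 468 by 24 h, and it rose at 37 and 66. Calls required a false discovery rate under 0.05 in edgeR's quasi-likelihood test over all tested rows of the line, and 4854 of the 4999 bound promoters had counts enough to be tested. At 3 h, 3.09% of the tested bound promoters were lower, against 4.28% of all tested rows, and 0.762% were higher, against 1.01%. At 24 h, 9.64% were lower, against 9.49% of all rows, and 1.36% higher, against 4.28%. Bound promoters thus lost H3K27ac about as often as rows of the table in general, which include the distal bound rows, and gained it less often. Distal bound rows fell far more often, in 15.2% of 31889 tested rows at 3 h and 32.1% at 24 h.

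Against unbound promoters the difference lay in the losses. Of 11182 tested unbound promoters, 7 were lower at 3 h (0.0626%) and 62 at 24 h (0.554%), while 77 (0.689%) and 208 (1.86%) were higher. Promoters with a TWIST1 peak in 1 replicate were close to the unbound ones, with 0.129% lower at 3 h and 0.954% at 24 h. Most bound promoters moved little: the median log2 change was 0.09 at 3 h and 0.01 at 24 h, the 10th percentile -0.58 and -1.0, and the 90th 0.43 and 0.37. Unbound promoters had medians of 0.20 and 0.16, distal bound rows -0.63 and -0.89, and all rows 0.02 and 0.03. Unbound promoters thus stood slightly above the typical row, and bound promoters between them and the distal rows. The values are relative to the libraries' own scaling, and scaling by library size alone moved the median of all rows to 0.11 and 0.16. It also moved the bound promoters' calls to 103 lower and 53 higher at 3 h (66.0% lower, against 80.2%) and to 395 and 113 at 24 h (77.8% lower, against 87.6%).

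**Figure D1:**
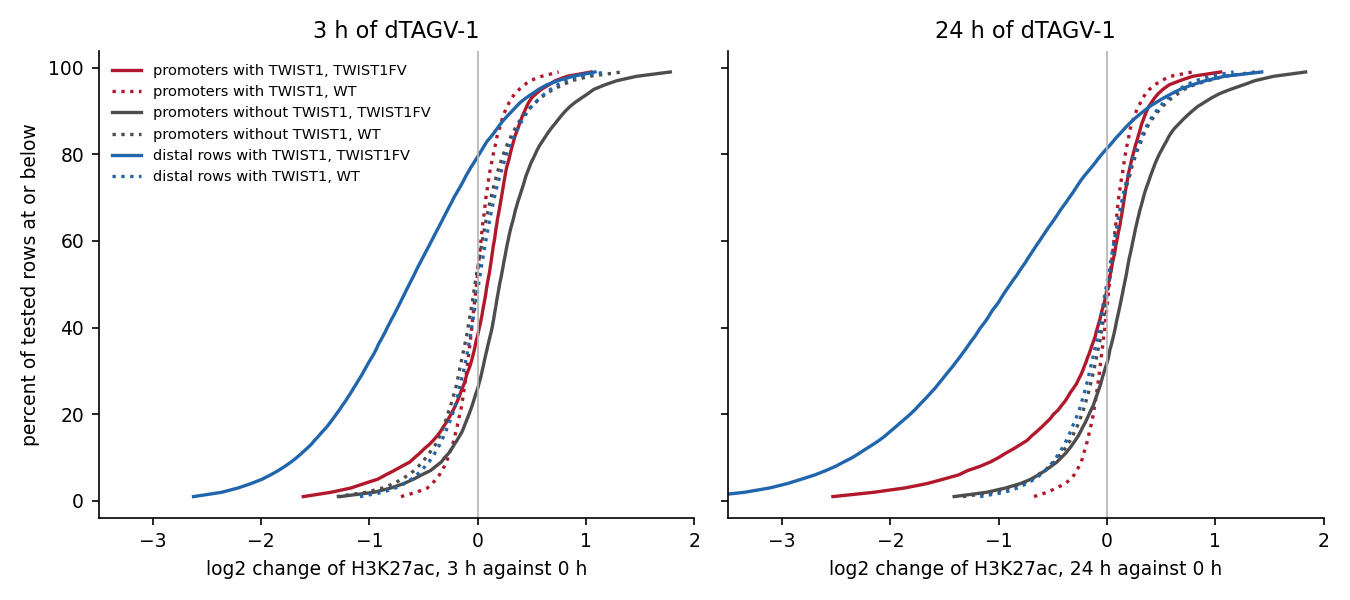
Cumulative percentage of tested rows (y axis) against the log2 change of H3K27ac from 0 h (x axis) at 3 h and 24 h in TWIST1FV and WT cells, with 1 line each for bound promoters, unbound promoters and distal bound rows. In TWIST1FV the bound promoters have a longer lower tail than unbound promoters (10th percentile -0.58 at 3 h and -1.0 at 24 h) and the distal rows are shifted as a whole (medians -0.63 and -0.89), while the WT lines lie close together.

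Most promoters called at 3 h were also called at 24 h. Both times were compared with the same 0 h libraries, so this agreement is partly built in. Of the 150 promoters lower at 3 h, 144 were also lower at 24 h, and 29 of the 37 higher at 3 h were still higher. A further 324 were lower and 37 higher at 24 h alone, by the threshold, and none changed from lower to higher or back. The called promoters had median log2 changes of -1.25 and 1.01 at 3 h and -1.42 and 1.04 at 24 h, and 363 of the 468 promoters lower at 24 h had fallen by more than 1 on the log2 scale. Both 0 h libraries weighed on the counts. Leaving out TWIST1FV replicate 1 at 0 h gave 43 lower and 3 higher promoters at 3 h, and leaving out replicate 2 at 0 h gave 80 and 12. The counts were 106 and 15 without replicate 1 at 3 h, and 79 and 21 without replicate 2 at 3 h. At 24 h, leaving out replicate 1 at 0 h gave 303 lower and 28 higher, leaving out replicate 2 at 0 h gave 43 higher, and leaving out replicate 2 at 24 h gave 308 lower. In each such fit an arm with 1 library was assumed to vary like the others. Of the 150 and 468 lower promoters, 36 and 223 were lower in all 4 of these fits, as were 3 of the 37 and 22 of the 66 higher ones.

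WT cells, treated with the same compound but without a tag, showed no called change at bound promoters. Of 4871 tested, 0 passed at 3 h or 24 h with edgeR or with DESeq2, and 173 and 130 had an unadjusted p under 0.05, against 686 and 940 of 4854 in TWIST1FV. The response itself was then compared between the lines, in a fit of the 12 libraries of both. The change at 3 h was lower in TWIST1FV than in WT at 83 of 4927 tested bound promoters (1.68%, against 2.48% of all rows) and higher at 13 (0.264%, against 0.305%). By 24 h these were 343 (6.96%, against 5.85%) and 31 (0.629%, against 1.49%). Among 12188 unbound promoters, 7 and 28 differed at 3 h and 32 and 85 at 24 h. Of the promoters called lower in TWIST1FV alone, 82 of 150 and 336 of 468 also differed from WT, as did 11 of 37 and 30 of 66 of the higher ones.

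The median change of bound promoters minus that of unbound promoters summarises the shift in each replicate. Each library was set against the 0 h library of the same number, although in TWIST1FV and WT these numbers are not known to pair samples. In TWIST1FV it was -0.12 in both replicates at 3 h, and -0.17 and -0.13 at 24 h (mean -0.15 ± 0.03, SD, n = 2). The WT values were 0.02 and 0.00 (3 h) and 0.01 and 0.00 (24 h). The values of the lines did not overlap. An exact two-sided permutation test gave p = 0.333 at each time, the smallest that 2 against 2 replicates allow, so it cannot decide. In the other 4 lines the median difference ranged from -0.04 to 0.02. The levels at 0 h also differed between these lines. Before treatment, the median log2 CPM (counts scaled to the library's total) of bound promoters exceeded that of unbound promoters by 1.75 and 1.74 in TWIST1FV and by 1.64 and 1.65 in WT. After 24 h the TWIST1FV values were 1.52 and 1.53, and those of WT 1.65 and 1.61. TWIST1FV cells thus started above WT in this measure and ended below it.

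**Figure D2:**
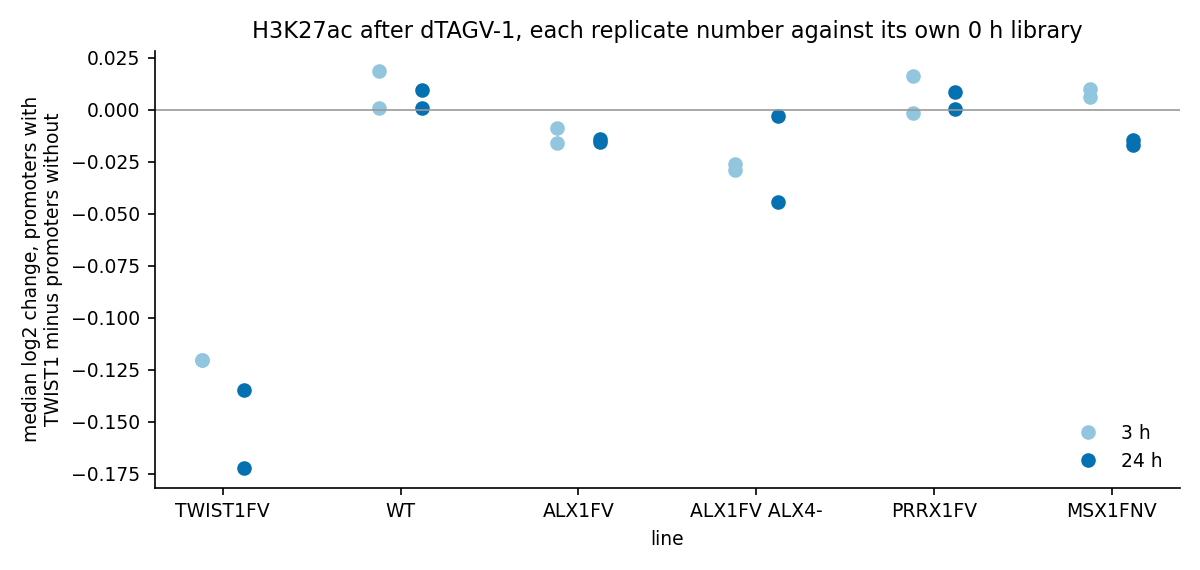
Median log2 change of H3K27ac at bound promoters minus that at unbound promoters (y axis), 1 point per replicate, at 3 h and 24 h in the 6 lines (x axis). The 4 TWIST1FV points lie between -0.17 and -0.12, and the points of all other lines lie between -0.04 and 0.02.

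Few or no TWIST1-bound promoters passed after depletion of a homeodomain factor. In ALX1FV, 0 of 4805 tested bound promoters passed at either time, with 31 and 47 at an unadjusted p under 0.05. In PRRX1FV, 0 of 4806 passed, with 162 and 224. In MSX1FNV, 1 of 4785 passed, the promoter of CDPF1 (chr22:46250607-46251107), which was higher at 24 h. It was among the 0.00448% of all tested rows called higher in that line. Its counts were 78 and 88 at 0 h, 198 and 163 at 3 h, and 239 and 251 at 24 h (log2 change 1.73 at 24 h, SE 0.21, adjusted p = 0.000152). Both libraries at 24 h exceeded both at 0 h, but the call was lost without replicate 2 at 0 h or without replicate 1 at 24 h. In TWIST1FV the same promoter changed by -0.39 and -0.50 on the log2 scale, which did not pass.

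The ALX1FV ALX4- line, which loses ALX1 on a background without ALX4, had 0 of 4786 bound promoters past the threshold at either time, with 252 and 382 at an unadjusted p under 0.05 and 33 distal bound rows lower at 24 h. Its replicates were different clones, and with the clone as a block 8 bound promoters were lower at 24 h, beside 0.139% of all tested rows. They included MRGPRX3, a sensory-neuron receptor gene (log2 change -0.93, adjusted p = 0.0202), PCBD2 (-0.88, 0.00878), RASL12 (-0.62) and ALX4 itself (-0.65, adjusted p = 0.0113, against 0.101 without the block). The ALX4 row (chr11:44310834-44311334) is at the promoter of the gene knocked out in this line. Without replicate 2 at 0 h, 23 bound promoters were lower at 3 h and 42 at 24 h, and without replicate 1 at 0 h, 2 were lower at 24 h. Of the 8, RASL12 and EPB41L3 also changed by -1.38 and -1.14 in TWIST1FV at 24 h. RASL12 was the one of the 8 with a V5 peak in both replicates of this line, V5 being the tag on ALX1.

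Among the deepest losses at 3 h in TWIST1FV were those at FLI1, GJC1, OR2T10, PRIM2 and EMILIN2. FLI1 encodes an ETS-family transcription factor of blood and vessel development. Its row (chr11:128685522-128686345, at an alternative start) held 60 and 47 counts at 0 h, 10 and 2 at 3 h, and 10 and 8 at 24 h. In WT it held 85 and 32, 46 and 51, and 68 and 66. The TWIST1FV groups did not overlap, and the log2 change was -3.10 at 3 h (SE 0.57, adjusted p = 0.00338) and -2.69 at 24 h. Here and below, promoters were named because their change was called, so libraries that do not overlap add no further support. The difference from WT passed at both times (adjusted p = 0.0197 and 0.00221).

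GJC1, a connexin of gap junctions, lost most of its mark at an alternative start (chr17:44804284-44805080). Its counts were 135 and 136 at 0 h, 12 and 26 at 3 h, and 12 and 12 at 24 h, while all 6 WT libraries held between 136 and 182. The log2 change was -2.79 (SE 0.39, adjusted p = 0.000348) and -3.60 (SE 0.41, adjusted p = 1.24e-05). PRIM2, the large subunit of DNA primase, fell from 96 and 72 to 26 and 8 and then 12 and 4 at an alternative start (chr6:57315082-57315582), with changes of -2.26 and -3.52. The olfactory receptor gene OR2T10 fell from 64 and 88 to 8 and 18 and then 0 and 4 (chr1:248597629-248598129), with a change of -2.48 at 3 h. All 3 had low or moderate counts, and their treated and untreated libraries did not overlap. The call for PRIM2 at 3 h was lost without replicate 1 at 0 h or without replicate 2 at 3 h, while those for FLI1, GJC1, OR2T10 and EMILIN2 held in all 4 fits with 1 library left out.

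By 24 h the deepest losses were at BNC1, OR2T10, MPP1, MAGI2, COL17A1 and GJC1. BNC1 encodes basonuclin, a zinc-finger protein of keratinocytes and other epithelia. Its canonical promoter (chr15:83283745-83284245) held 204 and 184 counts at 0 h, 53 and 57 at 3 h and 4 and 4 at 24 h. In WT it held 104 and 70, 81 and 92, and 100 and 83. BNC1 thus started above WT and nearly lost the mark, with log2 changes of -1.78 (SE 0.29, adjusted p = 0.00143) and -5.68 (SE 0.41, adjusted p = 1.52e-07). COL17A1, a transmembrane collagen of hemidesmosomes, held 174 and 166 counts, then 34 and 52, then 12 and 16 (chr10:104084998-104085498, canonical start), and between 102 and 132 in WT. Its changes were -1.95 and -3.70, and both differed from WT (adjusted p = 0.0032 and 3.01e-07). MPP1, a membrane scaffold protein, fell from 132 and 128 to 40 and 33 and to 10 and 6 (chrX:154819841-154820341). MAGI2, a scaffold at cell junctions and synapses, fell from 64 and 94 to 30 and 16 and to 4 and 8 (chr7:78489276-78489776). The treated and untreated libraries of all 4 did not overlap, which their selection by called changes makes likely. At 3 h the call was lost without replicate 1 at 0 h for MPP1, and without either 0 h library or replicate 2 at 3 h for MAGI2, while all calls at 24 h held in the 4 fits with 1 library left out.

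EMILIN2, a glycoprotein of elastic fibres, carried a joint E-box and homeodomain site. Its counts were 120 and 202 at 0 h, 28 and 38 at 3 h, and 18 and 24 at 24 h (chr18:2847333-2848483), and between 146 and 168 in WT. The changes were -2.21 (adjusted p = 0.000801) and -3.01 (adjusted p = 1.84e-05). Of the 29 tested promoters with such a site, 24.1% were lower at 3 h and 41.4% at 24 h. For all tested bound promoters the shares were 3.09% and 9.64%, and for all tested rows 4.28% and 9.49%. Most of the 29 had a TWIST1 fold enrichment above 14.1, as did all 12 rows lower at 24 h. Among all tested bound promoters above that limit, 11.5% were lower at 3 h and 31.4% at 24 h. The part of peak strength in the shares of joint sites, and in those of E-box pairs below, was not tested. Rows can share a site, and the 7 rows lower at 3 h belonged to 6 genes. The rows lower at 24 h belonged to 9 genes and included LRRC17 (-2.43), RAB27A, a GTPase of vesicle transport (-1.86), and the protease gene CTSS (-1.35). A joint site was not always accompanied by a change: DLL3, a Notch ligand with a TWIST1 fold enrichment of 66.5, changed by 0.02 and -0.32, TANC1 by -0.18 and -0.17, and GPC6 by 0.04 and 0.10, none past the threshold. Of 33 tested promoters with an E-box pair, 4 were lower at 3 h (12.1%) and 8 at 24 h (24.2%). Those lower at 24 h included CBFA2T2 (-2.62), SMARCB1, a subunit of the SWI/SNF remodeller (-2.22), CHRNA1, the muscle acetylcholine receptor (-1.91), and the tetraspanin gene CD81 (-1.35). ARID3A, with an E-box pair and a fold enrichment of 155, changed by between -0.04 and 0.26 in its rows and did not pass.

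Gains of H3K27ac were fewer and smaller. CADPS2, which primes vesicles for exocytosis, rose at an alternative start (chr7:122437961-122438936) from 42 and 34 counts at 0 h to 140 and 112 at 3 h and 367 and 221 at 24 h. WT held between 28 and 52. The log2 change was 1.77 (SE 0.30, adjusted p = 0.00208) and 2.81 (SE 0.30, adjusted p = 6.92e-06), and it differed from WT at both times (adjusted p = 0.000578 and 3.76e-06). IGSF9B, an adhesion protein of inhibitory synapses, rose from 91 and 92 to 319 and 224 and to 486 and 302 (chr11:133950593-133952268), with changes of 1.62 and 1.98. MBNL3, a muscleblind RNA-binding protein, rose from 26 and 40 to 164 and 70 and to 280 and 116 (chrX:132412062-132412562), with changes of 1.90 and 2.46. The groups did not overlap at any of the 3, and the replicates stood farthest apart at MBNL3. Their authors' TWIST1 fold enrichments were 6.62, 12.7 and 6.44, against 83.2 at FLI1, 76.6 at BNC1 and 79.9 at COL17A1.

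The other promoters with the largest gains were less secure. PCDHAC2 (a protocadherin), RIPOR1 and IGFBP6 (a binder of insulin-like growth factors) rose by 1.89, 1.66 and 1.62 at 3 h. These calls were lost without replicate 1 at 0 h or replicate 2 at 3 h, and those of PCDHAC2 and IGFBP6 also without replicate 2 at 0 h. That of MBNL3 was lost without either 0 h library or replicate 1 at 3 h, but held at 24 h in all 4 fits. IGFBP6 did not pass at 24 h (0.74, adjusted p = 0.239). At 24 h, DKK1, a secreted WNT antagonist, rose from 16 and 18 counts to 84 and 87 (log2 change 2.22, SE 0.38, adjusted p = 0.000573), with 35 and 30 at 3 h. WT held 10 and 19 at 0 h and 22 and 24 at 24 h, and the difference between the lines did not pass (adjusted p = 0.113). OSBP2 rose by 3.91 and HTR3B, a serotonin receptor subunit, by 1.97 at 24 h. The difference from WT passed for HTR3B (adjusted p = 0.00359) but not for OSBP2 (adjusted p = 0.697).

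**Figure D3:**
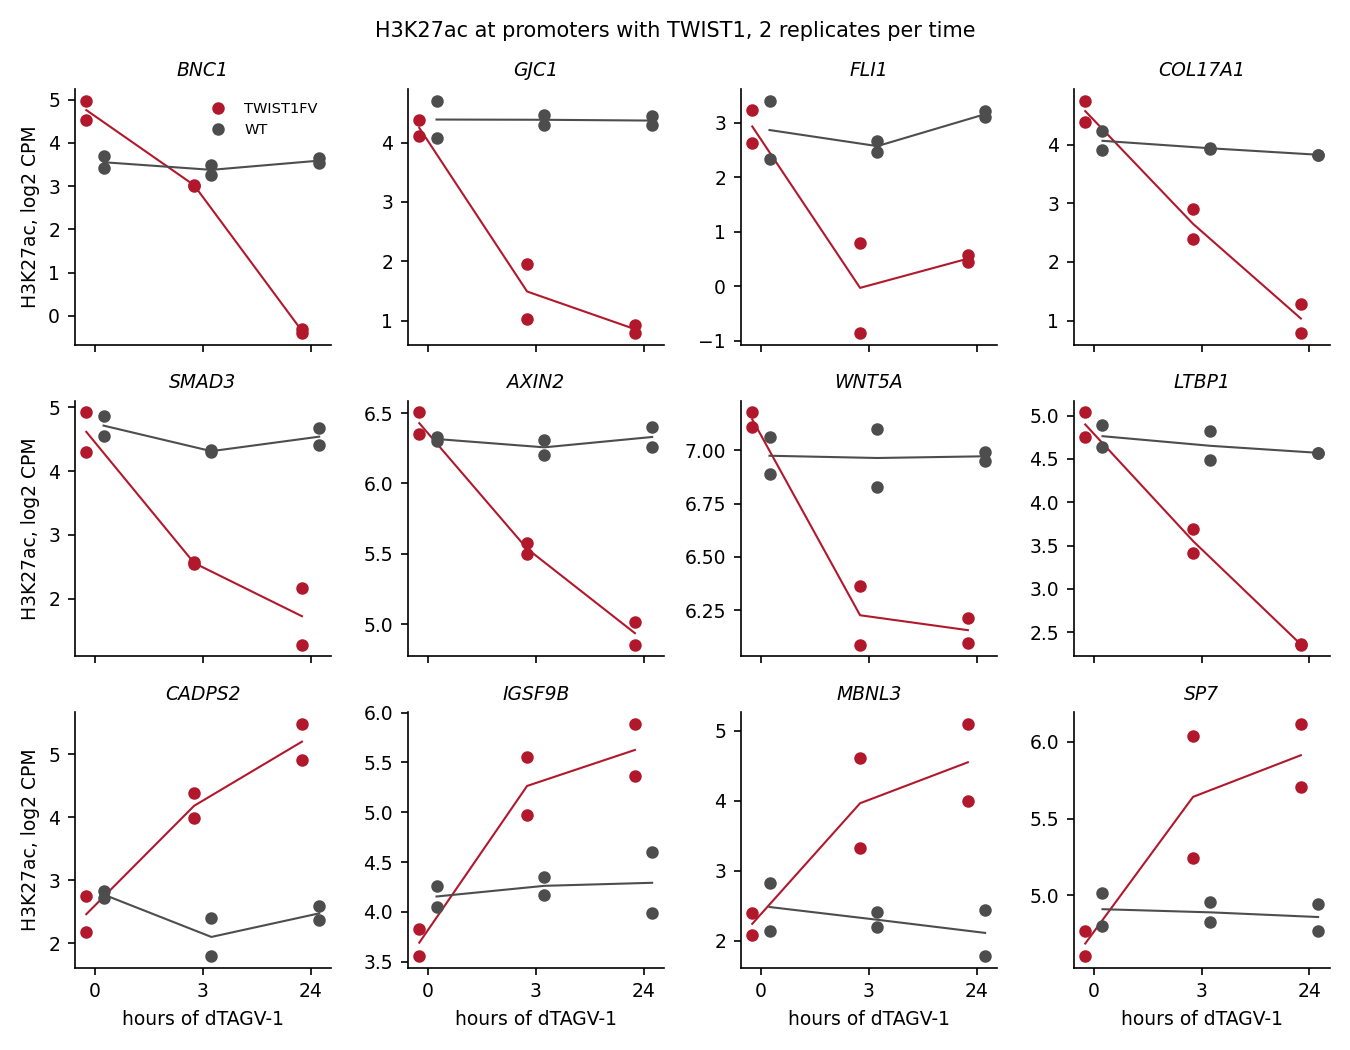
H3K27ac level in log2 CPM (y axis) at 0 h, 3 h and 24 h (x axis) for 12 bound promoters in TWIST1FV and WT, with 1 point per replicate and a line through the mean of 2. BNC1, GJC1, FLI1, COL17A1, SMAD3, AXIN2, WNT5A and LTBP1 fall in TWIST1FV, CADPS2, IGSF9B, MBNL3 and SP7 rise, and none of their changes in WT passed.

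None of 9 of these promoters, FLI1, GJC1, BNC1, COL17A1, SMAD3, CADPS2, IGSF9B, WNT5A and AXIN2, passed in any of the 5 other lines, where their changes ranged from -1.19 (FLI1 in ALX1FV ALX4- at 24 h) to 0.45. Among unbound promoters, the largest losses at 3 h by the same rule were smaller, at SEMA5A, an axon guidance gene (-1.18), KCTD10 (-1.09) and HSD17B7 (-1.05). The largest gains were larger, at CRMP1 (2.50), KIAA1522 (2.34) and MEIS2, a homeodomain factor (2.26), although CRMP1 and MEIS2 had no more than 8 counts in either library at 0 h.

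Genes of several developmental pathways were followed as lists of bound promoter rows. For collagen and matrix genes, 4 of 38 tested rows (3 genes) were lower at 3 h and 10 (7 genes) at 24 h with 0 higher. Among all tested rows, 4.28% and 9.49% were lower. The median change of the list was -0.18 and -0.29. The 31 unbound rows of the same list had 0 calls in either direction and medians of 0.22 and 0.10. The rows that fell included COL11A1 and COL12A1, the small proteoglycan lumican (LUM), ELN for elastin, the protease inhibitor TIMP3, and the laminin chains LAMA1 and LAMA4. LUM held 409 and 382 counts at 0 h, 210 and 238 at 3 h and 169 and 136 at 24 h (chr12:91111885-91112385), a change of -0.79 (adjusted p = 0.0301) and -1.50 (adjusted p = 8.5e-05). COL11A1, a minor fibrillar collagen of cartilage, held 220 and 288, then 120 and 137, then 100 and 118 (chr1:103107703-103108203), a change of -0.93 and -1.31. A LAMA4 row held 133 and 135, then 52 and 54, then 32 and 32, a change of -1.30 and -2.18. The groups did not overlap in any of the 3, and the calls at 24 h held in all 4 fits with 1 library left out. The calls at 3 h were lost with any 1 of the 4 libraries left out for COL11A1, and without replicate 1 at 0 h or either library at 3 h for LUM and LAMA4. A neighbouring LAMA4 row over the same TWIST1 site was also lower, and its call at 3 h was lost with any 1 library left out.

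In the BMP and TGF-beta list, 3 of 28 tested bound rows were lower at 3 h and 7 at 24 h with 0 higher, beside 4.28% and 9.49% of all tested rows lower. The lower rows belonged to 2 genes at 3 h and 4 genes at 24 h. The medians were -0.09 and -0.28, and 0 and 2 of 44 unbound rows were lower. SMAD3, which carries the TGF-beta signal to the nucleus, fell at an alternative start (chr15:67098221-67099072) from 196 and 156 counts to 38 and 41 at 3 h and 35 and 16 at 24 h, against 153 to 238 in WT. Its change was -2.13 (SE 0.35, adjusted p = 0.00136) and -2.93 (SE 0.36, adjusted p = 3.02e-05). LTBP1, which holds latent TGF-beta in the matrix, fell at an alternative start (chr2:33134645-33135145) from 213 and 214 to 86 and 75 and to 40 and 36, against 165 to 244 in WT. Its change was -1.36 and -2.60, and the call at 3 h was lost without replicate 1 at 0 h. A neighbouring LTBP1 row over the same TWIST1 site was also lower, and its call at 3 h was lost without either 0 h library or replicate 2 at 3 h. The receptor genes TGFBR1 and BMPR1B were lower at 24 h. The losses in this list thus included a latent-ligand binder, 2 receptors and a signal transducer.

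In the WNT list, 2 of 23 tested bound rows were lower and 0 higher at 3 h. At 24 h, 6 rows of 5 genes were lower and 1 row was higher. The shares of all tested rows were 4.28% and 9.49% lower and 1.01% and 4.28% higher. The medians were -0.23 and -0.32. Of 43 unbound rows, 0 were lower at either time, and 1 and 2 were higher. The ligand gene WNT5A (chr3:55481911-55482821, alternative start) held 901 and 1158 counts at 0 h, 462 and 591 at 3 h and 562 and 547 at 24 h, against 794 to 1195 in WT. Its change was -0.92 (SE 0.15, adjusted p = 0.00162) and -0.99 (SE 0.15, adjusted p = 0.000231). AXIN2, a feedback inhibitor of beta-catenin signalling, held 592 and 651, then 324 and 323, then 265 and 212 (chr17:65558520-65559445, alternative start), against 540 to 688 in WT. Its change was -0.90 and -1.50, and the call at 3 h was lost without replicate 1 at 0 h. WNT5B, the antagonist DKK2 and the agonist RSPO1 were also lower at 24 h, and the antagonist DKK1 was the row that rose. Ligands, antagonists and an agonist thus all occurred among the losses.

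The hedgehog list had 1 of 11 bound rows lower at 3 h and 3 at 24 h, all at the transcription factor gene GLI2. These counts stand beside 4.28% and 9.49% of all tested rows lower. Of 14 unbound rows of this list, 0 passed at 3 h, and 3 were lower and 1 higher at 24 h, so losses were not limited to bound rows. The GLI2 row lower at both times held 96 and 99 counts at 0 h, 42 and 38 at 3 h and 34 and 24 at 24 h (-1.24 and -1.87). The call for GLI2 at 3 h was lost with any 1 library left out. In the FGF, PDGF and receptor tyrosine kinase list, 1 of 28 was higher at 3 h. At 24 h, 1 was lower (PDGFRA) and 2 higher (the ligand PDGFC and the inhibitor SPRY1). The shares of all tested rows were 1.01% higher at 3 h, and 9.49% lower and 4.28% higher at 24 h. PDGFC rose by 0.85 (adjusted p = 0.0489) and 1.34, and its call at 3 h was lost with any 1 library left out. Among 25 rows of craniosynostosis genes, 0 passed at 3 h and 7 were lower at 24 h, which belong to 4 genes, TCF12, POR, IL11RA and TGFBR1. Of 19 rows of bHLH and ID genes, 0 passed at 3 h and 3 were lower at 24 h, at TCF3 and TCF12, the E-protein partners of TWIST1. Each of these 2 lists had 23 tested unbound rows, of which 0 passed, and 9.49% of all tested rows were lower at 24 h.

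Of 14 bound rows of neural crest transcription factors, 1 was lower at each time (SNAI2, a zinc-finger repressor that drives the epithelial-to-mesenchymal transition) and 1 higher (a row shared by SOX8 and LMF1). Among all tested rows, 4.28% and 9.49% were lower, and 1.01% and 4.28% higher. The call of the shared row was lost at 3 h with any 1 library left out. Its call at 24 h was lost when either 0 h library or the first 24 h replicate was left out. SNAI2 held 551 and 755 counts at 0 h, 408 and 427 at 3 h and 468 and 398 at 24 h, while WT held 605 to 830 without a called change. Its change was -0.59 (adjusted p = 0.0402) and -0.69 (adjusted p = 0.00646), and it differed from WT at both times. The call at 3 h was lost with any 1 of the 4 libraries left out, and that at 24 h without replicate 2 at 0 h or at 24 h. Of 14 rows of craniofacial homeodomain factors, 0 passed at 3 h and 1 was higher at 24 h (SIX2), against 1 and 4 higher of 24 unbound rows. In the list of cadherins and regulators of the epithelial-to-mesenchymal transition, ZEB1 and SNAI2 were lower at 24 h and CDH3, P-cadherin, was higher at both times (387 and 421 counts, then 697 and 590, then 904 and 653, a change of 0.72 and 0.82), among 12 rows. The call of CDH3 at 3 h was lost without either 0 h library or replicate 1 at 3 h, and that at 24 h without replicate 2 at 0 h.

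Of 10 bound rows of skeletal and muscle genes, 2 were higher at 3 h and 3 at 24 h. These counts stand beside 1.01% and 4.28% of all tested rows. A row of TPM1 was lower at 24 h, beside 9.49% of all tested rows. The 2 higher at 3 h were neighbouring rows of SP7, the osteoblast transcription factor osterix, which rest on the same promoter region. The SP7 row chr12:53345754-53346254 held 157 and 216 counts at 0 h, 446 and 271 at 3 h and 570 and 384 at 24 h, against 186 to 268 in WT. Its change was 1.01 (SE 0.24, adjusted p = 0.0188) and 1.25 (SE 0.24, adjusted p = 0.00167), and it differed from WT at both times, but the call at 3 h was lost without either 0 h library or without replicate 1 at 3 h. Among 22 cell cycle rows, 1 and 2 were higher (CCND2, then also CDK6), beside 1.01% and 4.28% of all tested rows, and the call of CCND2 at 3 h was lost with any 1 library left out. Of 6 pluripotency rows, 1 was higher at 24 h (LIN28A), and of 12 histone acetylation rows 1 was lower at 24 h (HDAC4). The 13 immediate early, 20 ribosomal protein, 4 proteasome and 3 neuronal or glial rows had 0 calls at either time, with medians of 0.17, 0.08, 0.11 and -0.52 at 3 h in this order. Blood marker genes had 0 bound rows.

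The promoters of the depleted factors themselves did not pass in TWIST1FV. The bound row at TWIST1 (chr7:19117409-19117909) held 136 and 154 counts at 0 h, 139 and 152 at 3 h and 177 and 192 at 24 h, a change of 0.05 and 0.24. ALX1 held 1263 and 1768, 1260 and 1912, and 1422 and 1760, a change of 0.12 and -0.01. The 2 bound rows of ALX4 changed by between 0.04 and 0.10, and the MSX1 row, which was unbound, by -0.45 and -0.73 (adjusted p = 0.397 and 0.075). H3K27ac at a promoter does not measure the protein, so these rows do not check the depletion.

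The TWIST1 peak lists bear on the depletion directly. TWIST1FV cells at 0 h had 33479 and 25034 TWIST1 peak intervals, which touched 58.7% and 44.4% of the bound promoters, and after 3 h of dTAGV-1 the lists held 835 and 739 and touched 79 (1.58%) and 65 (1.3%). In WT the 3 h lists touched 84.8% and 89.2%. The WT lists at 0 h held 59282 and 49107 intervals, so the TWIST1FV lists were shorter than those of WT before treatment too. Of the bound promoters with a TWIST1FV peak in both 0 h replicates, 7.22% of 1869 tested were lower at 3 h and 20.7% at 24 h, against 0.476% and 2.08% of 1681 with no such peak. Among 98 tested promoters that still touched a peak at 3 h, 12.2% and 30.6% were lower. Requiring a reciprocal overlap in place of any shared base lowered these shares, to 28.2% and 21.2% for TWIST1FV at 0 h and 45.4% and 50.6% for WT at 3 h.

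As a description with no test, since peak strength comes from the lists that chose the members, the 4999 members were put into 4 near-equal groups by the authors' fold enrichment in WT replicate 1, with limits at 5.06, 7.46 and 14.1. From the weakest to the strongest group, and over the tested members of each, 0.081%, 0.247%, 0.339% and 11.5% were lower at 3 h, and 1.3%, 1.81%, 3.73% and 31.4% at 24 h. The strongest group thus held 142 of the 150 losses at 3 h and 386 of the 468 at 24 h. Its median log2 change was -0.21 and -0.42, against 0.16 and 0.11 in the weakest group. In the same order, 1.06%, 0.989%, 0.508% and 0.487% were higher at 3 h.

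**Figure D4:**
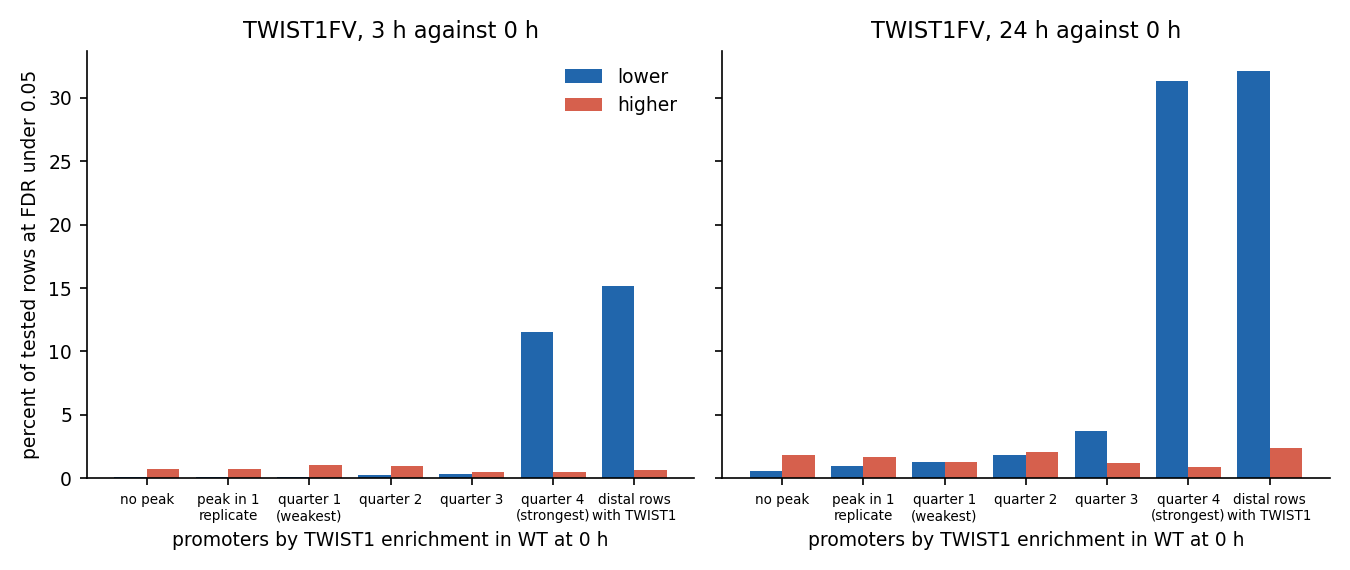
Percentage of tested rows with lower or higher H3K27ac in TWIST1FV (y axis, bars from 0) at 3 h and 24 h, for promoters with no TWIST1 peak, promoters with a peak in 1 replicate, bound promoters in 4 groups by TWIST1 fold enrichment, and distal bound rows. The bars for losses stay under 4% up to the group below a fold of 14.1 and reach 11.5% at 3 h and 31.4% at 24 h in the strongest group.

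A strong peak did not always come with a loss. The 3 rows of FSTL3, which share the strongest peak of replicate 1, changed by -0.96, -0.59 and -0.47 at 3 h, of which 1 passed. At 24 h they changed by -1.66, -1.66 and -0.76, all of which passed. The first of them (chr19:679635-680135) held 690 and 767 counts at 0 h, 437 and 283 at 3 h and 286 and 213 at 24 h. ARID3A and DLL3, named above with fold enrichments of 155 and 66.5, did not pass at either time. A bound row of ALX4 with a fold enrichment of 65.0 also did not pass.

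Losses were more frequent at members poor in CpG and at alternative starts. The TWIST1 windows of bound promoters had a median GC content of 61.7% and a CpG observed-over-expected ratio of 0.679, near those of unbound promoters (64.2% and 0.687) and unlike those of distal bound rows (44.8% and 0.173). In 3 equal bands of the CpG ratio, split at 0.503 and 0.799, 7.28%, 1.66% and 0.429% of the tested members were lower at 3 h, and 20.4%, 6.20% and 2.57% at 24 h, from the poorest to the richest in CpG. Among the members with the strongest TWIST1 peaks the same order was seen, with 40.8%, 22.7% and 14.1% lower at 24 h. Members near a canonical start were lower less often than those at alternative starts only, 52 of 3777 (1.38%) against 98 of 1077 (9.10%) at 3 h and 220 (5.83%) against 248 (23.0%) at 24 h. Within the strongest peaks the shares at 24 h were 22.9% and 44.9%. Peak strength, CpG content, kind of start and distance overlap among the members, and their separate parts were not tested.

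Distance and surroundings ran along the same line. With the TWIST1 summit within 100 bp of the start, farther off up to 250 bp, up to 500 bp and beyond, 1.79%, 2.50%, 2.91% and 5.31% of members were lower at 3 h and 5.42%, 7.69%, 10.1% and 16.1% at 24 h. Members with no distal bound row within 50 kb were lower in 1.12% of cases at 3 h, and those with distal bound rows of which none fell in 2.21%. With 1 falling distal row nearby 9.66% were lower, and with 2 or more 15.2%, which became 25.3% and 33.8% at 24 h. Unbound promoters beside 2 or more falling distal rows were lower in 0.797% at 3 h and 7.17% at 24 h, against 0% and 0.09% of those with no distal bound row. Losses at unbound promoters were thus also more frequent near falling distal rows, at lower shares than at bound promoters. The falling distal rows were called at 3 h in the same TWIST1FV libraries as the promoters, so this agreement is partly built in. Such rows can also lie little more than 1 kb from a start.

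The level of H3K27ac moved less with the outcome. In 4 bands of mean log2 CPM, with limits at 3.30, 4.49 and 5.46, 3.05%, 4.04%, 2.39% and 2.88% of bound promoters were lower at 3 h, against 0.032%, 0.081%, 0.062% and 0.259% of unbound promoters of the same bands. At 24 h these were 12.7%, 11.8%, 7.50% and 6.59% against 0.52%, 0.651%, 0.559% and 0.517%. Bound promoters were thus lower more often than unbound promoters in each of the 4 bands at both times. The shares also differed by kind of E-box, beside 3.09% and 9.64% of all tested bound promoters and 4.28% and 9.49% of all tested rows. Of 143 tested members with CATATG, 11.2% were lower at 3 h and 23.8% at 24 h, and of 1474 with CAGATG 4.75% and 14.0%. Of 1587 with CAGCTG, 2.58% and 8.51% were lower, and of 370 with CACGTG 0.811% and 4.05%. A member can hold more than 1 form, and the parts of CpG content and peak strength in these shares were not tested.

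Other peak lists showed where the bound promoters differ from distal TWIST1 sites. AP2a, a transcription factor of neural crest and surface ectoderm, had peaks at 67.6% and 70.2% of the bound promoters with antibodies from Novus Bio and Cell Signaling, at 35.3% and 38.2% of unbound promoters and at 17.7% and 19.8% of distal bound rows. Members bound by AP2a in both lists were lower less often (1.82% of 3132 at 3 h and 6.64% at 24 h) than those in neither (6.33% of 1184 and 17.6%). TWIST1 in RS4;11, a human lymphoblast line, had peaks at 72.8% of bound promoters, 48.8% of unbound promoters and 14.8% of distal bound rows. In HEK293, a human embryonic kidney line transfected with TWIST1, the shares were 67.3%, 31.8% and 14.6%, and in 3 replicates with V5-TWIST1 66.7%, 53.3% and 77.0% of bound promoters, 31.6%, 20.0% and 45.7% of unbound promoters and 10.6%, 8.33% and 14.7% of distal rows. Promoters bound in hCNCC were thus touched in the other cell types several times as often as distal hCNCC sites, and unbound promoters were touched more often than those distal sites too.

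In HEK293 given ALX4 together with TWIST1, the shares were 60.8% of bound promoters, 22.3% of unbound promoters and 23.6% of distal rows in 1 library. In the V5-TWIST1 replicates with ALX4, 53.2%, 62.8% and 76.5% of bound promoters and 18.6%, 23.3% and 28.8% of distal rows were touched. Distal rows were touched as often as unbound promoters or more in 3 of these 4 lists, and less often in the third V5-TWIST1 replicate (37.9% of unbound promoters). V5 lists of the homeodomain factors touched few bound promoters, 1.00% and 0.220% for ALX1FV, 0.760% and 0.90% for ALX1FV ALX4-, 0.0400% and 0.300% for MSX1FNV and 0% in both for PRRX1FV. TWIST1 in ALX1FV ALX4- cells at 0 h touched 82.3% and 76.7% of bound promoters and 79.0% and 74.0% of distal rows. The lists differ in length, and the part of list length in the shares was not tested.

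**Figure D5:**
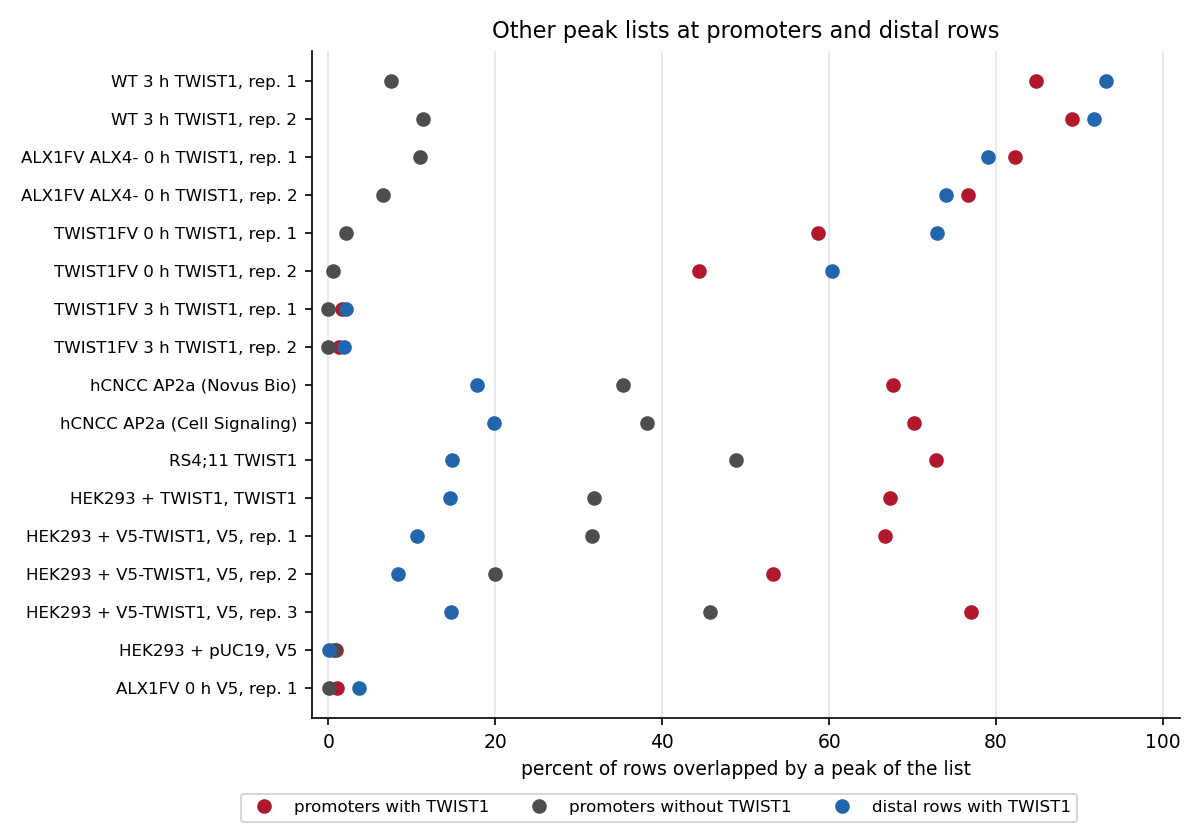
Percentage of rows touched by each peak list (x axis) for bound promoters, unbound promoters and distal bound rows, with 1 line per library (y axis). Lists of TWIST1 from hCNCC, other than those left after 3 h in TWIST1FV, touch at least 44.4% of both bound promoters and distal rows, while the lists of AP2a, of RS4;11 and of HEK293 with TWIST1 alone touch bound promoters most, unbound promoters next and distal rows least.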

How the data were processed

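Each of 6 deposited tables gives whole-number H3K27ac counts per ATAC-seq interval, which the authors made per line. Most counts of 20 or more were even, so both mates of a pair may have been counted. Per the labels' protocols, reads were aligned to hg38 and mm39 combined, and mouse cells were added to TWIST1FV and WT libraries as a spike-in. The spike-in reads are not used here, so a change over the whole genome cannot be measured. The peak lists give the authors' fold enrichment (a ratio) and −log10 q per peak, called per library, with deposited columns read in the standard peak order. The submitters' processing notes name Bowtie2 2.4.1, SAMtools 1.10, MACS2 2.2.7.1 and deepTools 3.5.0.

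Counts were tested per line with edgeR 4.0.16 (R 4.3.3, limma 3.58.1), with its default filter on low counts, TMM scaling, time as factor and Benjamini-Hochberg adjustment over all tested rows. Levels are log2 CPM with a prior count of 2. The difference between TWIST1FV and WT was an interaction term in a fit of 12 libraries. DESeq2 1.42.0, library-size scaling, no filter, a replicate block, single libraries left out, other distance limits and canonical starts (the last chosen after seeing the data) were alternatives. Overlaps of at least 1 bp were found with bedtools 2.31.1, sequences read with pysam 0.24.0 and the exact test run with scipy 1.17.1 (Python 3.11.15). The fits were tested on simulated counts. Depth ranged from 5137169 to 9173063 counts per library.

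Genes were named by rule: at each time, the 6 lowest and 6 highest called bound promoters of TWIST1FV above the median level with the same sign in both replicate numbers, and bound promoters of the gene lists called at 3 h. Added to these were bound promoters called in another line, the depleted factors, 3 rows to either side of the distance limit, the rows with the strongest peaks and the extremes of unbound promoters. Other members named beside a list or a site are examples, and some results are not reported here. The members and lists were chosen with earlier results of these data known. Replicate numbers stand for clones in ALX1FV, ALX1FV ALX4- and PRRX1FV, per the labels, and so pair their samples. The deviations of same-numbered libraries correlated at 0.253 to 0.264, 0.027 to 0.037 and 0.018 to 0.021 in these lines.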

Additional observations from a re-analysis of the deposited data

Results flagged for a closer look

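At some bound promoters the response to dTAGV-1 differed between TWIST1FV and WT by the interaction term of edgeR's quasi-likelihood test. At 3 h the change was lower in TWIST1FV at 83 of 4927 tested bound promoters (1.68%, against 2.48% of all rows) and higher at 13 (0.264%, against 0.305%). At 24 h it was lower at 343 (6.96%, against 5.85%) and higher at 31 (0.629%, against 1.49%). Named promoters with such a difference included GJC1 (adjusted p = 5.64e-05 at 3 h), BNC1 (adjusted p = 4.77e-10 at 24 h) and CADPS2 (adjusted p = 3.76e-06 at 24 h).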

How the results depend on the processing

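The counts of calls depended on single libraries and on the definition of a promoter, and no called result reversed direction. The median difference in WT at 24 h, which lies near 0 (0.0044), turned to -0.007 without WT replicate 1 at 0 h. With single libraries left out, bound promoters lower in TWIST1FV numbered 43 to 106 at 3 h (150 with all) and 303 to 375 at 24 h (468), and those higher 3 to 21 (37) and 28 to 48 (66). Those differing from WT numbered 43 to 97 lower (83) and 4 to 23 higher (13) at 3 h, and 255 to 334 (343) and 19 to 35 (31) at 24 h. In ALX1FV ALX4- the lower calls ranged from 0 to 23 at 3 h and 0 to 42 at 24 h, and the higher call of MSX1FNV at 24 h from 0 to 1. The median change of bound minus unbound promoters ranged from -0.14 to -0.1047 (3 h) and -0.1643 to -0.1535 (24 h) in TWIST1FV, and from 0.0008 to 0.0212 and -0.007 to 0.013 in WT. In TWIST1FV at 3 h, lower and higher calls were 95 and 17 with no filter. With midpoints up to 2 kb from a start the lower calls were 244 (3 h) and 718 (24 h), and with up to 500 bp the higher calls were 22 and 41. With canonical starts the lower and higher calls were 52 and 21 at 3 h and 220 and 37 at 24 h. A joint fit of 36 libraries gave 67 higher at 3 h, and library-size scaling 113 higher at 24 h. The calls that differ from WT were 53 lower and 6 higher at 3 h and 18 higher at 24 h with 500 bp. They were 150 and 21 at 3 h and 530 lower at 24 h with 2 kb, and 26 and 5, then 155 and 17, with canonical starts. The call of MSX1FNV at 24 h became 0 with 500 bp or with the TWIST1 summit required inside the row. The median difference in TWIST1FV at 3 h (-0.11) was -0.114 with library-size scaling, -0.0963 with no filter, -0.1146 with DESeq2, -0.0926 with 500 bp, -0.1521 with 2 kb, -0.1058 with the summit inside the row, -0.1047 against all promoters not bound in both replicates and -0.0766 with canonical starts. At 24 h (-0.15) it was -0.1161, -0.2004 and -0.0953 with 500 bp, 2 kb and canonical starts. The cause was not tested where fewer rows or samples do not show it.

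In TWIST1FV and WT the replicate numbers are not known to pair samples. With the replicate block, TWIST1FV had 308 lower and 230 higher at 3 h and 243 higher at 24 h, the differences from WT were 194 and 118 at 3 h and 88 higher at 24 h, and the median difference at 3 h was -0.1173. In ALX1FV ALX4-, where numbers are clones, the block gave 8 lower at 24 h, and in MSX1FNV 1 and 2 higher at 3 h and 24 h. It changed no call in ALX1FV and PRRX1FV. Same-numbered libraries deviated together with correlations of 0.077 to 0.14 in TWIST1FV, 0.035 to 0.042 in WT and 0.078 to 0.092 in MSX1FNV. Over the alternatives, the named promoters kept direction and status, called or not called, in 845 cases, lost a call in 124 and gained one in 10. The 845 include promoters that did not pass in TWIST1FV, such as those of TWIST1, ALX1 and ALX4. Depth limits the calls at promoters with few counts, and 2 libraries per group limit all of them.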
